A study of Mus musculus with 6 samples.

Results

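The regions described here are stretches of open chromatin inside the bodies of protein-coding genes but more than 2 kb from the start and the end of every such gene, called distal intragenic regions below. They were selected by position alone from a shared set of 74686 ATAC-seq regions (GRCm38), with RefSeq gene bodies of 21887 protein-coding genes, and numbered 32041, or 42.9% of the set. Another 18376 regions (24.6%) lay within 2 kb of a gene boundary and are called boundary regions, and 24269 (32.5%) lay outside genes. ATAC-seq counts the DNA fragments that a transposase cuts from accessible chromatin. OT1 cells are CD8 T cells whose transgenic receptor recognizes a peptide of ovalbumin. They were sorted, with CD8 and CD45.1 (a marker of transferred cells) as the gate, out of tumors grown from B16-OVA-GP61, a mouse melanoma line given ovalbumin and the viral peptide GP61. In 3 libraries no SMARTA cells were present (N1, N2 and N3), and in the other 3 TCR-transgenic SMARTA CD4 T cells, which recognize GP61, were present (S1, S2 and S3). The labels used here give no age, sex or time point, and do not say whether a library came from a single animal or a pool, so a p-value here reflects only how these libraries vary, which may be technical. All 6 libraries came from OT1 cells of tumors carrying both antigens, and the comparison asks how the presence of SMARTA CD4 T cells bears on the chromatin of the OT1 cells.

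Most transcription starts lie at gene boundaries, whereas many enhancers lie within introns, far from any start. Enhancers are bound by transcription factors and act on promoters over a distance, often on the gene that holds them but also on neighbours, so the gene named with a region gives only its position. In CD8 T cells that meet antigen persistently, as in tumors, enhancers within or near genes such as Tox and Pdcd1 are known to become accessible. Exons and introns were not told apart here. Regions that lost counts past the threshold with SMARTA cells are called closed and those that gained are called opened. In sorted bulk cells, fewer cells with an open region and less access in each cell cannot be told apart.

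The 32041 regions fell in 8435 genes, with a median of 2 per gene and a highest number of 77, in Foxp1. One region only was found in 3040 genes, while 178 genes with 20 or more held 5092. Each lay wholly inside a gene body, and 279 lay inside the bodies of 2 or more genes and are counted under each. The width was 401 bases for 31357 of them, and the longest spanned 1425 bases. The median distance to the nearest gene boundary was 17.77 kb, with quartiles of 7.854 and 39.663 kb, and 2035 regions lay more than 100 kb inside.

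Although far from every outer gene boundary, 1081 distal intragenic regions lay within 0.5 kb of the start of an alternative coding transcript, and 272 lay near a non-coding start only. The 5 regions with the highest mean accessibility, in Rfx1, Hdac4, Sin3a, Slc39a10 and Sp2, were all at such internal coding starts. The sequences below are the 250 bases before 7 internal starts, taken from RefSeq promoter windows (GRCm38.p6), each read 5′ to 3′ on the strand of its transcript. Rfx1 (a winged-helix transcription factor) and Hdac4 (a histone deacetylase) are shown as the most accessible regions, Zbtb32 (a BTB zinc-finger repressor of lymphocytes) and Fry (a cytoskeleton-associated protein) as closed starts, and Gpr132 (a G protein-coupled receptor), Rarg (retinoic acid receptor gamma) and Nfatc2 (an NFAT factor downstream of calcium signalling) as opened starts. Capitals mark matches, on either strand, to a GC box (GGGCGG) or to a RUNX motif (TGTGGT).
Rfx1, chr8:84066586-84066835, plus strand: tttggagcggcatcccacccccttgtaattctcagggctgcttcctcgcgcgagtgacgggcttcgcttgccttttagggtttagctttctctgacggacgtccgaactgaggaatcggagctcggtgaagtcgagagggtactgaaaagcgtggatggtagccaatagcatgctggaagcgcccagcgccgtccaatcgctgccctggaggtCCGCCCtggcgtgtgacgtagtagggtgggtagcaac
Hdac4, chr1:92180342-92180591, minus strand: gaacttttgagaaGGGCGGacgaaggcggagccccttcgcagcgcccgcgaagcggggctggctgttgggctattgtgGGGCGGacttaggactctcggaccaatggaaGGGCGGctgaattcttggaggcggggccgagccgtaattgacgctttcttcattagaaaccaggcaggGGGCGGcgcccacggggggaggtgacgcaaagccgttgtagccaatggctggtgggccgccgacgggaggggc
Zbtb32, chr7:30592943-30593192, minus strand: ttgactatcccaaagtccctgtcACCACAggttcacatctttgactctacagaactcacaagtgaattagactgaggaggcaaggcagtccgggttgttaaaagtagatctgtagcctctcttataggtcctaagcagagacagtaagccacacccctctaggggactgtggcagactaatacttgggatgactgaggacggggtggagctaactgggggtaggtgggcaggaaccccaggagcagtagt
Fry, chr5:150259680-150259929, plus strand: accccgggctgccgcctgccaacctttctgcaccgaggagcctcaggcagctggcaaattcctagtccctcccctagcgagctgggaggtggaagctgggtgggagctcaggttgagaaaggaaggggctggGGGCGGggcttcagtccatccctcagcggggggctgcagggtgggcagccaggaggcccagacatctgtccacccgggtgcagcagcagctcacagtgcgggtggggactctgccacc
Gpr132, chr12:112860917-112861166, minus strand: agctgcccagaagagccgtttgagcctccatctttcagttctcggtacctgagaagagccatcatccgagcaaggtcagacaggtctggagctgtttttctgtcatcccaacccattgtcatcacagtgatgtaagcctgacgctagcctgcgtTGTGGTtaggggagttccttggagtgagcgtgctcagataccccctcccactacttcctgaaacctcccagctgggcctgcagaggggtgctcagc
Rarg, chr15:102246501-102246750, minus strand: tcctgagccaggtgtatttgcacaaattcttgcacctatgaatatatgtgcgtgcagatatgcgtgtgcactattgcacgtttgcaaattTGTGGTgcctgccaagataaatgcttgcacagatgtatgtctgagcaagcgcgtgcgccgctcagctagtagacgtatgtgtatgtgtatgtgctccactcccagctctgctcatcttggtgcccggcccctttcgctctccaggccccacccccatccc
Nfatc2, chr2:168590366-168590615, minus strand: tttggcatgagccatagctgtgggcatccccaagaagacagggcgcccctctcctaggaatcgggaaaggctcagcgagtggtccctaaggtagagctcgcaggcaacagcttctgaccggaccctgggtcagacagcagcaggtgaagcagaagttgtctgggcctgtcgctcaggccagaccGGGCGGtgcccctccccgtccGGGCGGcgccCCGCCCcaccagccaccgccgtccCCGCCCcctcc

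In these windows the Rfx1 and Hdac4 sequences held 20 and 23 CpG dinucleotides, the Nfatc2 sequence 16 and the Zbtb32 sequence 2. The Hdac4 and Nfatc2 windows held 4 GC boxes each. Windows at distal intragenic regions, 768 with an overlap of at least 100 bases, had a median GC content of 59.8% and 14 CpG dinucleotides, against 55.6% and 10 over all 21238 windows. A GC box was present in 57.9% of them and in 42.6% of all windows, and a TATAAA match in 4.0% against 11.6%. The AP-1 motif TGANTCA was found in 6.5% against 6.1%, the RUNX motif in 13.0% against 12.4%, the ETS motif CCGGAA in 17.3% against 14.99% and the NFAT motif TGGAAA in 13.8% against 16.98%. All 768 windows overlapped an accessible region, whereas the 21238 were taken whether or not they did. Accessible starts at gene boundaries were not compared, so these values are not shown to be particular to internal starts. The 27 windows at closed regions had a median of 9 CpG dinucleotides and the 44 at opened regions a median of 19, a description of few windows that was not tested. The motifs were searched on both strands, do not overlap in their letters, and a match shows letters only.

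At the Zbtb32 start, accessibility was 4.80, 5.28 and 5.16 log2 CPM (normalised counts scaled to a common library size) in N1 to N3 and 3.67, 2.58 and 3.54 in S1 to S3. The groups did not overlap, and the difference, given throughout as with minus without SMARTA cells, was a log2 fold of -1.76 ± 0.25 (SE, n = 3 per group), with an adjusted p of 0.0017 in edgeR's quasi-likelihood test over all 74686 regions. The Fry start went from 3.84, 3.10 and 3.17 to 2.13, 1.86 and 1.69 (-1.52 ± 0.25, adjusted p = 0.0033 in edgeR). The Gpr132 start rose from 5.26, 5.31 and 5.35 to 5.80, 5.73 and 5.96 (0.52 ± 0.09, adjusted p = 0.0033 in edgeR). The groups lay apart at each of these 3 starts. S2 was the lowest of the S libraries at Zbtb32 and Gpr132 and not at Fry. The Rarg start rose from 5.60, 5.71 and 5.62 to 5.93, 6.28 and 6.32 (0.55 ± 0.10, adjusted p = 0.0062 in edgeR). The Nfatc2 start rose from 5.95, 5.89 and 5.98 to 6.24, 6.29 and 6.29 (0.33 ± 0.07, adjusted p = 0.0079 in edgeR), a call that was lost under accessibility-trended offsets.

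Total counts were 19149455 to 26218921 without and 16595779 to 27182809 with SMARTA cells, and the median count per distal intragenic region was 72, 92 and 86 in N1 to N3 and 63, 51 and 87 in S1 to S3. In a principal component analysis over these regions the first component (58.8% of the variance) separated the groups and the second (19.6%) set S2 apart. Correlations of log2 CPM, across regions, which are not independent replicates, were 0.918 to 0.975 within groups and 0.836 to 0.905 between them. The biological coefficient of variation was 17.97%. All 8 CD8 T cell marker genes had an accessible region, with a summed level of 1214 to 1314 CPM without and 1145 to 1379 CPM with SMARTA cells. Regions of melanocyte genes (3 of 9 genes with any) summed to 248 to 265 and 265 to 299 CPM, B cell genes (5 of 6) to 110 to 136 and 96.7 to 116 CPM, myeloid genes (6 of 10) to 168 to 172 and 161 to 169 CPM, CD4 T cell genes (4 of 4) to 149 to 165 and 146 to 168 CPM, and fibroblast or endothelial genes (5 of 8) to 55.9 to 62.0 and 50.1 to 58.8 CPM. The remaining genes, among them Tyr, Tyrp1, Dct and Sox10 of melanocytes, Ms4a1 of B cells, Lyz2, Adgre1, C1qa and C1qb of myeloid cells and Col1a2, Col3a1 and Tek, had no region in the set. The sums covered 87 regions for CD8 T cells and 6, 19, 12, 12 and 12 for the other sets in the order given, so they cannot be compared between sets. The highest boundary region per gene had a median of 5.24 log2 CPM for CD8 T cells and 5.04 for melanocyte genes. It was 3.03 for B cell, 3.20 for myeloid, 4.21 for CD4 T cell and 1.24 for fibroblast or endothelial genes. The part of other cell types in the results below was not tested.

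With SMARTA cells present, far more distal intragenic regions lost accessibility than gained it. Of the 32041 regions, all of which passed the filter on low counts, 3835 (12.0%) were closed and 1563 (4.88%) were opened at an adjusted p of 0.05 in edgeR. Over all regions tested, 10.4% were closed, 4.68% were opened and 15.1% were called in either direction, so the share closed stood somewhat above the background and the share opened near it. Boundary regions were closed in 4.06% and opened in 5.08%, and regions outside genes in 13.1% and 4.12%. Distal intragenic regions made up 49.4% of all closed and 44.7% of all opened regions. The median log2 fold was -1.35 among closed and 0.84 among opened distal intragenic regions, and 3091 closed and 465 opened regions changed at least 2-fold. The median over all distal intragenic regions was -0.02, against 0.01 over all regions and 0.07 over boundary regions. All S libraries lay below all N libraries at 6587 distal intragenic regions and above them at 4491, where 34.2% of all regions had groups that did not overlap. The number closed fell to 2409 without N2, 2366 without N3 and 2153 without S3, and the number opened fell to 894, 584 and 634 without N1, N2 and N3 and to 745 without S3.

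Per library, the mean accessibility of distal intragenic regions was 2.22, 2.18 and 2.19 log2 CPM in N1 to N3 and 2.03, 2.01 and 2.06 in S1 to S3, so the groups did not overlap. Boundary regions averaged 3.81 without and 3.79 with SMARTA cells. The difference between the 2 classes within a library went from -1.61 ± 0.01 to -1.75 ± 0.02 (SD, n = 3 per group), a change of -0.14 (exact permutation p = 0.1, two-sided, the smallest p that 3 against 3 libraries allow). With accessibility-trended offsets this change was -0.05 (exact permutation p = 0.3). Against regions outside genes, the difference went up by 0.03 (exact permutation p = 0.1). Distal intragenic regions held 27.1, 27.2 and 27.3% of counts in N1 to N3 and 26.7, 24.8 and 26.5% in S1 to S3, a difference of -1.21 percentage points (27.2 ± 0.0648 against 26.0 ± 1.05%, SD, exact permutation p = 0.1) that was -0.603 without S2.

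**Figure D1:**
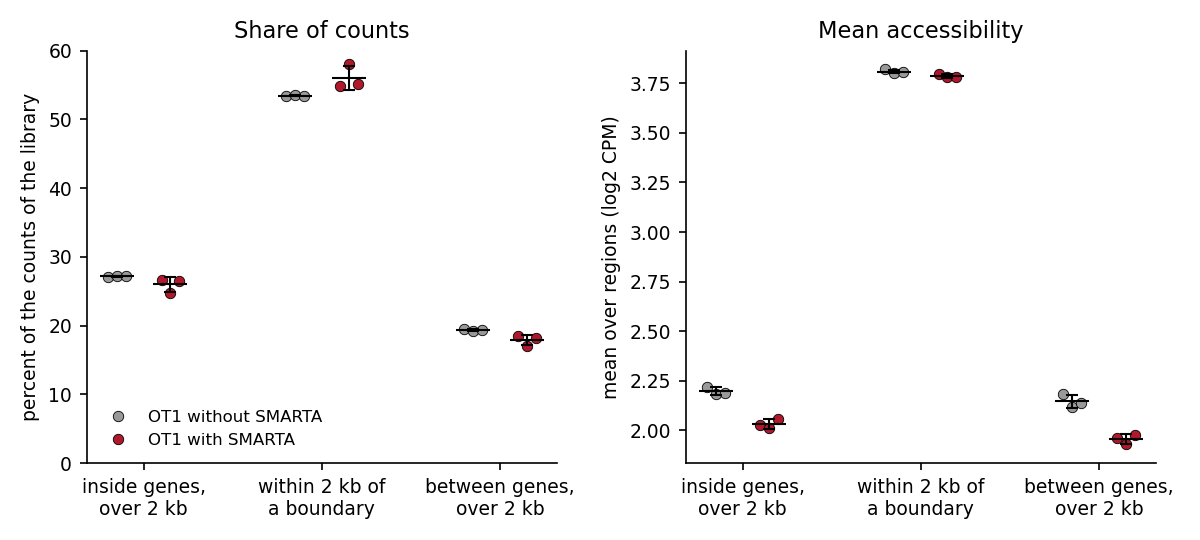
Percent of the counts (left) and mean log2 CPM (right) of distal intragenic, boundary and intergenic regions in each of the 6 libraries. Points are libraries, with the mean and SD of each group. Distal intragenic regions sit at 2.18 to 2.22 log2 CPM without and 2.01 to 2.06 with SMARTA cells, while boundary regions average 3.81 and 3.79.

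Distal intragenic regions were less accessible than boundary regions, with medians of 1.75 and 3.98 log2 CPM, so the classes were also set side by side at like accessibility. In 5 equal classes of all regions by mean log2 CPM, from the least to the most accessible, 13.5, 13.9, 13.9, 10.2 and 4.48% of distal intragenic regions were closed, against 8.52, 7.92, 8.20, 4.53 and 1.07% of boundary regions. The corresponding shares opened were 1.14, 3.07, 4.77, 6.97 and 12.7% against 0.665, 1.38, 2.31, 2.39 and 8.53%. The share closed was thus above that of boundary regions in each of the 5 classes, and so was the share opened (in 4 of 5 without S1), as values without a test. Under accessibility-trended offsets the shares closed were 9.58, 12.7, 13.5, 12.1 and 8.57%, against 5.59, 7.13, 7.91, 5.77 and 2.41% of boundary regions. The shares opened were then 4.63, 4.61, 5.34, 7.66 and 9.54%, and those of boundary regions 2.93, 2.56, 2.68, 2.84 and 1.64%. Regions outside genes were closed in 15.9, 14.8, 13.8, 10.6 and 6.34% and opened in 1.45, 2.80, 4.21, 5.88 and 9.86%, close to the distal intragenic values.

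**Figure D2:**
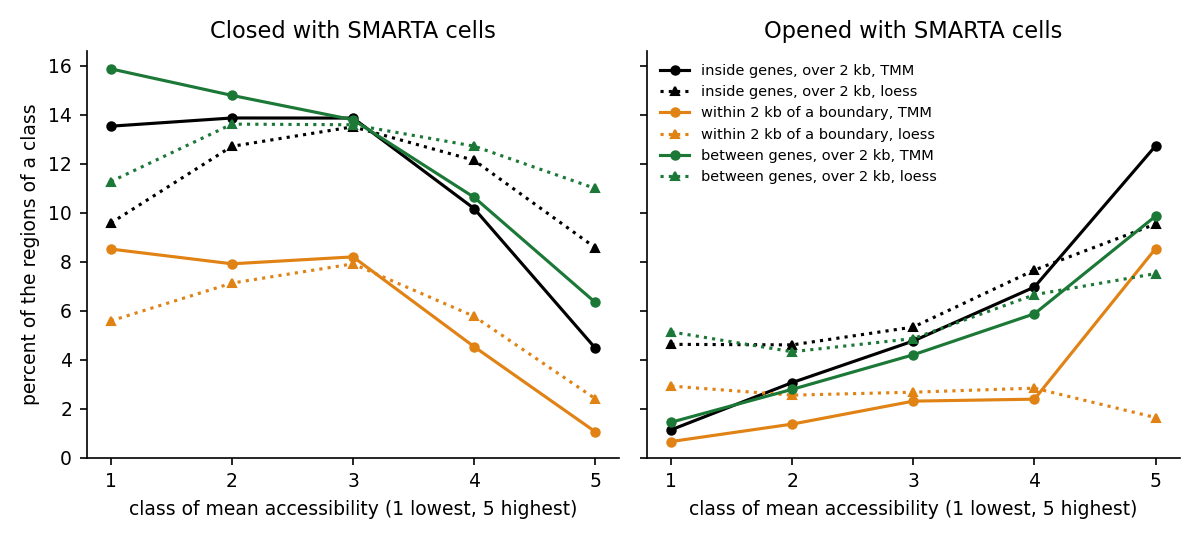
Percent of regions closed and opened with SMARTA cells in 5 equal classes of mean log2 CPM, for distal intragenic, boundary and intergenic regions. Solid lines show the main scaling and dotted lines the accessibility-trended offsets. Among distal intragenic regions the share closed goes from 13.5% in the least to 4.48% in the most accessible class, and the share opened from 1.14 to 12.7%.

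The share closed was higher the deeper a region lay inside its gene. It was 8.37% at 2 to 5 kb from the nearest boundary, 10.3% at 5 to 10 kb, 10.8% at 10 to 20 kb, 13.0% at 20 to 50 kb, 15.5% at 50 to 100 kb and 17.2% beyond 100 kb. The share opened showed no such order, with 5.25, 4.51, 4.92, 4.97, 4.19 and 5.95%. Deeper regions were also less accessible, the median log2 CPM going from 2.29 in the nearest to 1.42 in the farthest class. Among the less accessible regions the share closed went from 10.6 to 18.2%, and among the more accessible ones from 7.08 to 15.9%. The order held with each library left out, except that without N2 the values at 5 to 10 and 10 to 20 kb were 6.33 and 6.31%. By gene length, 8.95% of regions were closed in genes under 50 kb 15.1% in genes of 200 to 400 kb and 14.998% in longer ones. By position along the gene, in 5 equal parts from start to end over 6694 genes whose strand was known, the shares closed were 12.6, 12.0, 12.3, 12.2 and 11.3%. At the edge of the selection, 24 of 382 regions lying 2 to 2.2 kb from a boundary were closed and 14 opened, and 20 of 396 lying 1.8 to 2 kb away were closed and 15 opened.

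**Figure D3:**
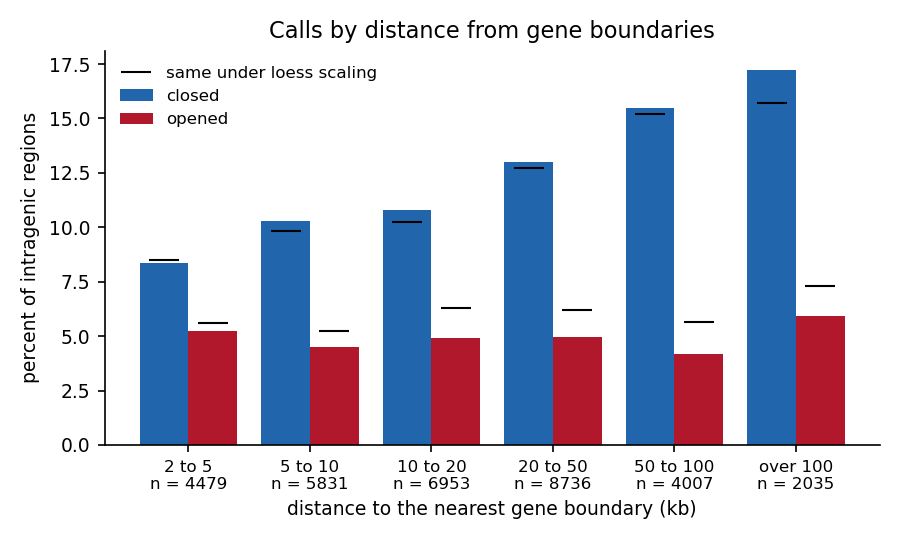
Percent of distal intragenic regions closed and opened with SMARTA cells by distance in kb to the nearest gene boundary. Black dashes mark the shares under accessibility-trended offsets. The share closed goes from 8.37% at 2 to 5 kb to 17.2% beyond 100 kb, while the share opened stays between 4.19 and 5.95%.

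Regions at internal coding starts differed in accessibility from the others. Their median was 4.53 log2 CPM, against 2.47 at non-coding starts and 1.70 at the 30688 regions with no listed start. Closed regions made up 3.79% (41), 12.1% (33) and 12.3% (3761) of these classes, and opened regions 5.83% (63), 5.15% (14) and 4.84% (1486). Between 4 and 5 log2 CPM, 8 of 201 regions at coding starts were closed (3.98%) and 4 opened (1.99%), against 6.70% and 10.8% of the 2195 with no start. Among the most accessible regions, Rfx1 gave 7.42, 7.48 and 7.39 log2 CPM in N1 to N3 and 7.51, 7.74 and 7.61 in S1 to S3, and Hdac4 gave 7.30, 7.37 and 7.29 against 7.50, 7.69 and 7.56. These values are higher in every S library, by 0.19 for Rfx1 (adjusted p = 0.062 in edgeR) and 0.26 for Hdac4 (adjusted p = 0.013 in edgeR). Sin3a (a scaffold of histone deacetylase complexes; 0.23, adjusted p = 0.025 in edgeR) and Slc39a10 (a zinc importer; 0.21, adjusted p = 0.048) were also called higher. Sp2 (a GC-box-binding factor) was not, at 0.15 (adjusted p = 0.10 in edgeR). The calls of Hdac4, Sin3a and Slc39a10 were lost under accessibility-trended offsets, where Slc39a10 stood at -0.012, and under DESeq2's Wald test. Those of Sin3a and Slc39a10 were also lost under scaling by total counts. Hdac4 lost its call without N3, Sin3a without N1, N3, S2 or S3, and Slc39a10 without N1, N2, N3, S2 or S3, while Rfx1 was called without S1.

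The largest falls among regions above the median accessibility took sites from well above the median of 1.75 log2 CPM to below it in S2 and S3. S1 was also below it, except in Ubash3b. In Ptch1 (the Hedgehog receptor), a region 31.55 kb inside the gene at chr13:63541506-63541906 had 4.55, 4.34 and 4.61 log2 CPM in N1 to N3 and 1.58, 0.15 and 0.56 in S1 to S3 (log2 fold -3.67 ± 0.32, adjusted p = 0.00026 in edgeR). In Tmod1 (tropomodulin, which caps actin filaments), at chr4:46099815-46100215, the values were 3.78, 4.26 and 4.12 against 0.98, 0.67 and 0.09 (-3.54 ± 0.27). In Ubash3b (a phosphatase that restrains T cell receptor signalling), at chr9:41112532-41112932, they were 4.38, 4.87 and 4.59 against 2.06, 0.50 and 0.70 (-3.42 ± 0.37). Only called regions whose groups did not overlap were eligible, so the separation of the groups came with the selection. In each case S1 was the highest of the S libraries. Acss1 (mitochondrial acetyl-CoA synthetase; chr2:150656465-150656865) went from 3.45, 3.90 and 3.87 to 0.65, 0.83 and -0.32 (-3.41 ± 0.31). Cwc27 (a spliceosomal cyclophilin; chr13:104763186-104763586) went from 4.16, 4.36 and 4.004 to 1.37, 0.44 and 0.45 (-3.43 ± 0.28). Tmem135 (-3.58 ± 0.25), Cep43 (a centrosomal protein; -3.54 ± 0.23) and Phactr2 (an actin- and phosphatase-binding protein; -3.40 ± 0.39) completed the 8 largest falls.

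The largest rises were smaller than the largest falls. In Gfra2 (a receptor for neurturin), at chr14:70961997-70962397, accessibility was 1.13, 0.92 and 1.19 log2 CPM in N1 to N3 and 2.90, 4.11 and 3.51 in S1 to S3 (2.56 ± 0.31, adjusted p = 0.00068 in edgeR). In Src (the tyrosine kinase), at chr2:157429744-157430144, it was 1.55, 1.28 and 1.49 against 3.04, 2.65 and 3.91 (1.90 ± 0.31, adjusted p = 0.0033 in edgeR). In Igf1r (the receptor of insulin-like growth factor), a region 118.41 kb inside the gene at chr7:68070669-68071069 had 2.37, 2.14 and 2.36 against 3.80, 4.14 and 4.11 (1.75 ± 0.19, adjusted p = 0.00046 in edgeR). The groups were apart at each of these sites by the same selection. The S libraries were spread more widely at Gfra2 and Src than at Igf1r. The other 5 of the 8 largest rises were in St8sia1 (the GD3 ganglioside synthase; 2.27 ± 0.24), Poc1b (a centriolar protein; 1.94 ± 0.25), Dtx4 (a Notch-pathway ubiquitin ligase; 1.83 ± 0.27), Tnfrsf10b (a receptor for TRAIL; 1.77 ± 0.29) and Zrsr2 (a splicing factor on the X chromosome; 1.77 ± 0.33).

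Among transcription factors linked to T cell exhaustion, 12 of 16 listed genes held distal intragenic regions, and of their 126 regions 49 were closed (38.9%, against 10.4% of all regions) and 5 opened, with a median log2 fold of -0.46. Without N3 30 and without S3 27 were closed, and 1 and 3 were opened. Tox, the factor that fixes the exhausted state, held 23 of the 49. Its most clearly changed region, 2.98, 2.83 and 2.48 log2 CPM in N1 to N3, was at 0.01, -0.20 and -0.46 in S1 to S3. Nfatc1 (a calcium-regulated factor) had 7 of 24 regions closed and 1 opened, with 4 closed without N2, N3 or S3 and none opened without N2, N3, S1 or S3, and its leading region went from 2.67, 2.95 and 2.82 to 1.34, 1.21 and 1.22. Both Ikaros-family genes in the list had closed regions, Ikzf3 5 of 16 with 1 opened (3, 2 and 2 closed without N2, N3 and S3, none opened without N3) and Ikzf2 4 of 10. The leading Ikzf2 region went from 2.14, 2.31 and 2.34 to -0.62, 0.23 and -0.32 (-2.61 ± 0.25). Prdm1 (Blimp-1) had 2 of 8 regions closed and 1 opened, Nfatc2 1 of 19 closed and 2 opened, Batf 2 of 3 closed and Nr4a3 2 of 4 closed, whereas none of the 3 regions in Tox2 was called.

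Genes of inhibitory receptors held 68 distal intragenic regions, of which 12 were closed (17.6%, against 10.4% of all regions). Another 2 were opened (2.94%, against 4.68%), and the median log2 fold of the list was -0.23. Without N3, 7 were closed, and 1 was opened without N2, N3 or S3 and 5 without S2. In Pdcd1 (PD-1), 2 of 3 regions were closed, and the leading one went from 5.15, 4.95 and 4.84 log2 CPM to 4.14, 3.72 and 4.08 (-0.99 ± 0.15). In Tigit, 2 of 3 were closed, 1 of 3 without N2 or N3, and the leading one, which also lies in the body of Zbtb20, fell by 3.20 on the log2 scale. Vsir (VISTA) had 3 of 15 closed, 1 without N2, N3 or S3, and 1 opened, 2 without N1 and none without N2, N3 or S3. Its leading region (-2.01 ± 0.33) also lies in Cdh23, the body of which overlaps it. Entpd1 (CD39, an ectonucleotidase) had 2 of 16 closed, with its leading region at -2.42 ± 0.34, and 2 opened without S2. Of the 15 genes 7, among them Havcr2 (TIM-3), Lag3 and Ctla4, had no called region.

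In genes of T cell receptor signalling and its brakes, 55 of 278 regions were closed (19.8%, against 10.4% of all regions). Another 8 were opened (2.88%, against 4.68%), and the median log2 fold of the list was -0.21. The closed count was 30 without N2, 35 without N3 and 32 without S3, and the opened count 1, 3 and 3 without N1 to N3, 4 without S1, 14 without S2 and 1 without S3. Ubash3b led with 19 of 32 closed. Cblb (a ubiquitin ligase that limits activation) had 10 of 43 closed, or 4, 2, 5 and 5 without N1, N2, N3 and S3, and its leading region fell by 1.24. Fyn (a Src-family kinase) had 8 of 35 closed, or 2, 4 and 4 without N2, N3 and S3, with its leading region at -1.71 ± 0.28. Lcp2 (the adaptor SLP-76) had none of 11 called. Among costimulatory genes 11 of 61 regions were closed (18.03%, against 10.4%) and 5 opened (8.20%, against 4.68%). The closed count was 6, 7 and 5 without N2, N3 and S3. The opened count was 1 without N1, N2, N3 or S3 and 3 without S1 or S2. Tnfsf8 (CD30 ligand) had 3 of 4 closed, its leading region going from 2.14, 2.82 and 3.00 to 1.37, 0.44 and 1.18, while the leading region of Cd28 rose by 0.71 ± 0.16. The cytotoxic genes held 15 regions, of which 1 was closed (6.67%, against 10.4%), in Tnfsf10 (TRAIL; -0.69 ± 0.19). That call was lost without N2, N3 or S3, when none of the 15 was closed, while 2, 3 and 2 were closed without N1, S1 and S2.

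Genes of effector differentiation had 21 of 132 regions closed (15.9%, against 10.4% of all and 12.0% of distal intragenic regions). Another 6 were opened (4.55%, near the 4.68% of all regions), and the median log2 fold of the list was -0.14. The closed count was 11 without N2, N3 or S3, and the opened count 3 without N1, N3 or S3. Runx1 (a Runt-domain factor of T cell development) went both ways, with 4 of 26 closed and 5 opened. Its closed count was 1, 1, 2 and 2 without N2, N3, S1 and S3, and its opened count 2, 3, 2, 3 and 2 without N1, N2, N3, S1 and S3. Its leading region rose from 2.97, 4.03 and 3.61 to 5.01, 5.41 and 5.20 (1.62 ± 0.23, adjusted p = 0.0018 in edgeR). Stat4 (which transmits interleukin-12 signals) had 4 of 23 closed. Il18rap (a chain of the interleukin-18 receptor) had 3 of 7 closed, or 1, 0, 1, 5 and 0 without N1, N2, N3, S1 and S3, and the call of its leading region was lost without N2, N3 or S3. Il12rb2 (a chain of the interleukin-12 receptor) had 2 of 16 closed and 1 opened (1.19 ± 0.20), with 1 closed without N2, N3, S1, S2 or S3 and 2 opened without S2. None of the 11 regions of Il2ra (the high-affinity interleukin-2 receptor chain) was called. Among genes of naive, memory and progenitor cells 39 of 247 were closed (15.8%, against 10.4%) and 10 opened (4.05%, against 4.68%), with a median of -0.13. The closed count was 23 without N3, and the opened count 4 without N2, 5 without N3 and 17 without S2. Bach2 (a repressor that keeps T cells from effector fate) had 12 of 44 closed and none opened, and its leading region went from 3.42, 3.89 and 4.04 to 1.74, 0.50 and 1.31. Bcl2 (the survival factor) had 7 of 28 closed, 3 without N3 and 4 without S3, with 2.52, 2.54 and 2.42 against 0.33, -0.10 and -0.13 at the leading region. Ets1 had 2 of 31 closed and 1 opened, of which none stayed closed without N1, N2, N3 or S3 and none opened without N1, N2, N3, S2 or S3. None of the 17 regions in Satb1 (a chromatin organizer) was called, and 2 were opened without S2.

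The genes of chemokine receptors, integrins and migration had the opposite balance, with 5 of 111 regions closed (4.50%) and 12 opened (10.8%, against 4.68% of all regions), and a median of 0.17. The balance kept this direction under every scaling run. Closed counts were 3 without N2, N3 or S3 and 10 without S2, and opened counts 6 without N2, N3 or S3 and 19 without S2. Tiam1 (a Rac exchange factor) held 6 of the 12, or 3 without S3, and none of the 5 closed. The balance of the list thus rested largely on Tiam1. The leading region of Tiam1 rose from 4.37, 4.38 and 4.42 to 5.48, 5.56 and 5.71. Selplg (the selectin ligand PSGL-1) had 2 of 5 opened, and none without N2, N3 or S3. Itgae (the CD103 integrin chain) had 2 of 8 opened, 1 without N2, N3 or S1 and 4 without S2, and 1 closed, at -1.63 ± 0.22. Dock2 (a Rac exchange factor) had 4 of 29 closed, 2 without N2, N3 or S3, and 1 opened without S2. The integrin genes Itga4 and Itgb1 had none of 10 and none of 14 called, with 4 of Itga4 closed without S2. Among genes of cytokine and TGF-beta signalling 12 of 123 were closed (9.76%) and 8 opened (6.50%), near the background, with a median of -0.01. Of these, 7 were closed without N3, and 3, 3, 4, 5 and 4 opened without N1, N2, N3, S1 and S3. Jak1 (a kinase of cytokine receptors) had 3 of 27 closed, 5 without S2 and 5 under scaling by total counts, and 3 opened, 1 without N2. Stat3 had 3 of 8 closed (leading region -1.11 ± 0.20). Smad3 had 1 of 21 in each direction, with none closed without S3, none opened without N1, N3, S1 or S3 and 4 opened without S2. Smad7 (an inhibitor of TGF-beta signalling) had 2 of 7 opened, or 0, 0, 1 and 1 without N1, N2, N3 and S3, and the call of its leading region was lost under accessibility-trended offsets (adjusted p = 0.0505 in edgeR).

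Genes that mark the T lineage had 10 of 120 regions closed (8.33%, against 10.4% of all regions). Another 2 were opened (1.67%, against 4.68%), and the median log2 fold of the list was -0.02. Closed regions numbered 5 without N2 or N3, and opened ones 0 without N1, N2, N3 or S3 and 6 without S2. Cd247 (the CD3 zeta chain) had 3 of 14 closed, 5 without S1, its leading region going from 3.73, 4.59 and 4.25 to 2.40, 1.57 and 2.34. Ikzf1 had 3 of 26 closed, or 0, 0 and 1 without N2, N3 and S3. Cd6 had 2 of 7 closed, or 0, 0, 1 and 1 without N2, N3, S1 and S3. Bcl11b (a factor that maintains T cell identity) had 1 of 32 opened, none without N1, N2, N3 or S3 and 5 without S2, and 2 closed without S1. In the lists of other cell types none of 3 melanocyte and none of 6 CD4 regions was called. In B cell genes 2 of 17 were closed, in Ebf1 and Pax5, or 0, 1, 1 and 0 without N1, N2, N3 and S3, the Pax5 call being lost also without S1. In myeloid genes 1 of 8 was closed, in Itgam. The shares closed were 11.8% in the B cell and 12.5% in the myeloid list, near the 10.4% of all regions. Fibroblast and endothelial genes had 4 of 18 closed, of which Pecam1 (an adhesion receptor also found on T cells) held 3, with a leading region at 5.59, 5.84 and 5.95 against 4.49, 3.80 and 3.92, and Twist2 held 1.

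At least 1 closed region was found in 2081 genes and at least 1 opened in 1082, of which 339 held both. Genes with 5 or more closed regions numbered 135 and held 973, and those with 5 or more opened numbered 27 and held 169. Among genes with at least 8 regions, Tox had the joint highest number closed, 23 of 31 over 305.2 kb, with none opened (15 closed without N3 and 13 without S3). Inpp4b (a phosphoinositide phosphatase) also had 23 closed, of 73 over 792 kb, with 1 opened (2 without N1 or S2, none without N2, N3 or S3). Its leading region, 387.73 kb inside the gene at chr8:81730386-81730786, went from 2.40, 3.19 and 3.18 log2 CPM to 0.08, -0.01 and -0.25. Acoxl (an acyl-CoA oxidase-like enzyme) had 21 of 33 closed, 11 without S3, its leading region going from 2.70, 3.27 and 3.32 to 0.01, -0.30 and 0.19. Ubash3b had 19 of 32 closed over 150.9 kb, and its region of smallest p went from 2.25, 2.31 and 2.54 to 0.15, -0.81 and -0.89. Hivep3 (a zinc-finger factor) followed with 17 of 41 (11 without S3), Prkca (protein kinase C alpha) with 15 of 41, F13a1 (the coagulation factor XIII A chain) with 13 of 21 (8 without S3) and Foxp1 (a factor of T cell quiescence) with 13 of 77.

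In Foxp1 5 regions were also opened. Its closed count was 8 without N3 or S3, and its opened count was 2 without N1, N2 or N3, 10 without S2 and 3 without S3. The leading Foxp1 region fell from 2.11, 3.18 and 2.95 to 0.39, -0.20 and 0.32, while the sum of its 77 regions was nearly level at -0.18 (adjusted p = 0.52 in edgeR over 8435 gene sums). The leading Prkca region went from 3.67, 3.35 and 3.32 to 0.86, 0.37 and 0.52.

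Opened regions were fewer than closed ones and lay in fewer genes. Genes with 5 or more opened regions held 169 of the 1563, and genes with 5 or more closed held 973 of the 3835. Thada had 12 of 34 opened and 4 closed, with 7, 6 and 6 opened without N1, N2 and N3 and 2 closed without N2, N3 or S1. St8sia1 had 11 of 30 opened and 1 closed, with 6, 5 and 6 opened without N1, N2 and S3, none closed without N2, N3 or S3 and 3 closed without S1, and the leading region went from 1.45, 1.06 and 1.49 to 3.44, 3.27 and 3.93. Znrf1 (a ubiquitin ligase) had 8 of 14 opened, 5 without N2, N3 or S3, and its leading region went from 1.34, 1.24 and 1.82 to 2.88, 3.15 and 3.03. Trat1 (an adaptor associated with the T cell receptor) had 7 of 10 opened, 4 without N2 or N3, and its leading region went from 1.06, 0.67 and 0.70 to 2.37, 2.31 and 2.11. Nebl (an actin-binding protein) had 7 of 14 opened, or 3, 1, 4, 3 and 2 without N1, N2, N3, S1 and S3, and its leading region went from 5.15, 5.31 and 5.36 to 5.94, 6.18 and 5.74. Snx29 (a sorting nexin) had 7 of 33 opened, or 4, 4, 2, 11 and 2 without N1, N2, N3, S2 and S3. Gramd3 had 8 of 21 opened, or 3, 0, 2, 3 and 1 without N1, N2, N3, S1 and S3, and 4 under scaling by total counts. Wwox (an oxidoreductase at a fragile site) had 8 of 39 opened and 10 closed, with 2, 3, 3 and 4 opened without N1, N2, N3 and S3, and 6, 3, 4, 6 and 2 closed without N1, N2, N3, S1 and S3.

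**Figure D4:**
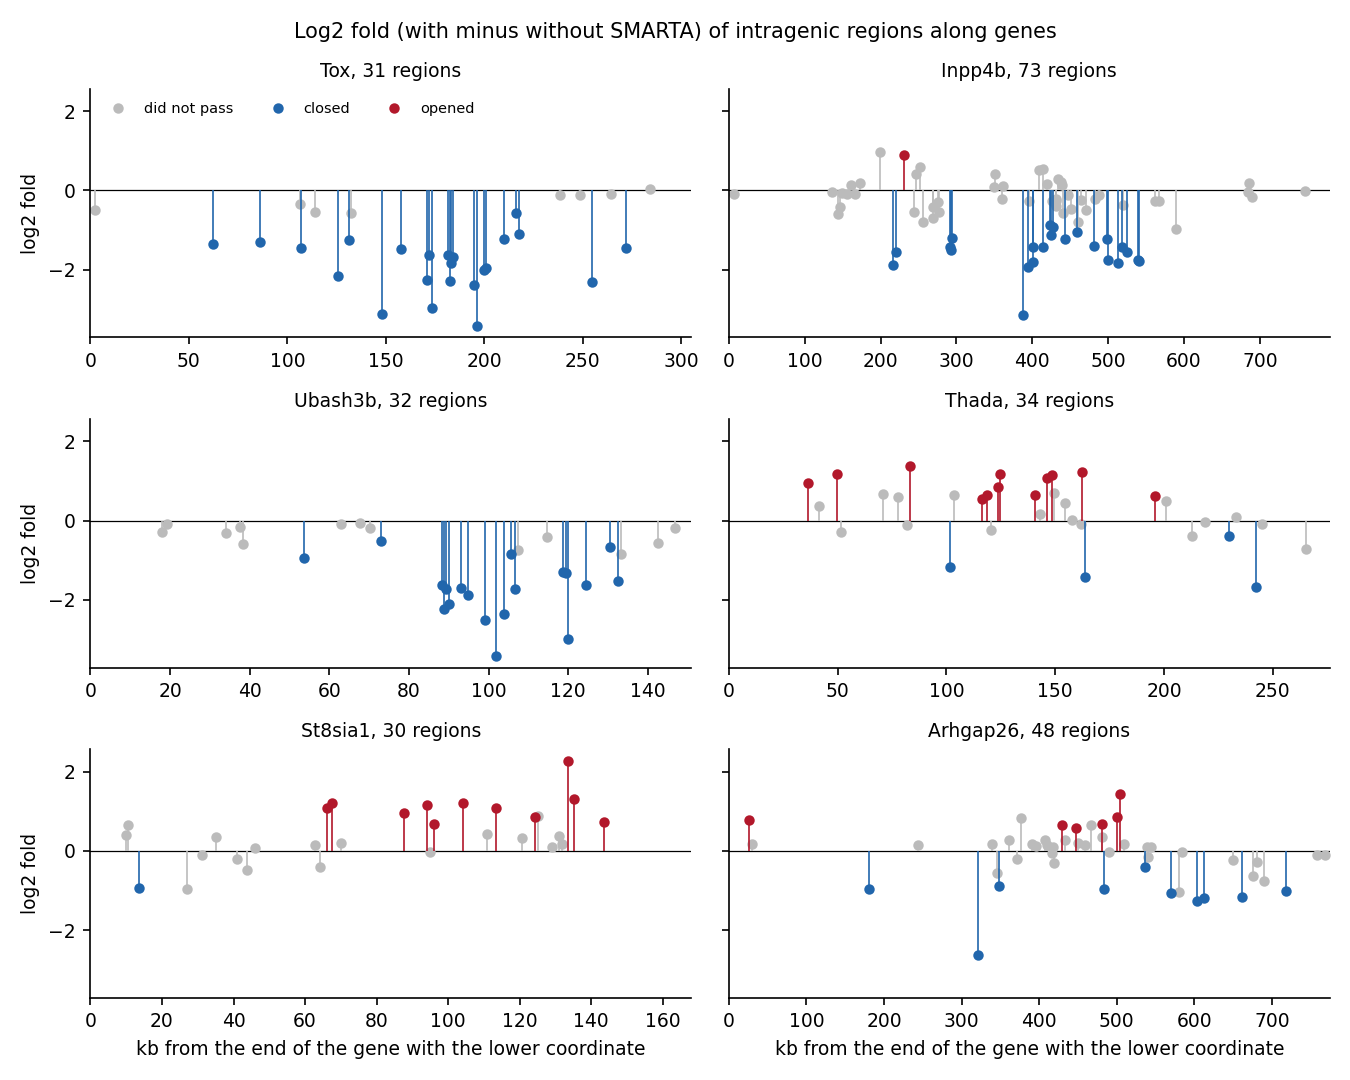
Log2 fold, with minus without SMARTA cells, of each distal intragenic region against its position in kb from the lower-coordinate end of the gene, for Tox, Inpp4b, Ubash3b, Thada, St8sia1 and Arhgap26; colours mark closed and opened regions and grey those that did not pass. Tox shows 23 of 31 regions closed and none opened, and Arhgap26 shows 10 closed and 6 opened of 48.

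Neighbouring called regions within a gene mostly changed in the same direction. Of 23755 adjacent pairs, with a median gap of 5.606 kb, both regions were called in 1261, and 121 of these changed in opposite directions. Within 5 kb, 632 of 678 such pairs (93.2%) shared a direction, at 5 to 20 kb 389 of 442 (88.0%), and beyond 20 kb 119 of 141 (84.4%). A neighbour of a closed region was itself closed in 35.5, 24.6 and 23.0% at these distances, against 12.0% of all distal intragenic regions, and a neighbour of an opened region was opened in 24.0, 18.7 and 8.47%, against 4.88%. Only 29.0% of the called distal intragenic regions were opened, so unrelated called pairs would also often share a direction. Adjacent regions share libraries and sometimes a regulatory unit, so these shares are descriptions. Uninterrupted runs of 4 or more closed regions were found in 56 genes and of 4 or more opened in 8. The longest closed runs were 16 regions over 69.8 kb in Tox, 12 over 34.2 kb in Ubash3b and 7 over 26.4 kb in Acoxl. The longest opened run was 6 regions over 20.6 kb in Trat1, and shorter runs of 4 spanned 4.28 kb in Znrf1 and 4.27 kb in Dtx4.

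Counts of all distal intragenic regions of a gene were also summed. The sum was lower with SMARTA cells in 857 and higher in 399 of 8435 genes (14.9% called, edgeR's quasi-likelihood test). Without N2, N3 and S3 the lower count was 510, 553 and 521, and without N1, N2, N3 and S3 the higher count was 259, 162, 190 and 216. The Tox sum was 7.67, 7.51 and 7.42 log2 CPM in N1 to N3 and 6.59, 6.52 and 6.40 in S1 to S3 (-1.03 ± 0.10, adjusted p = 0.00025 in edgeR). F13a1 (-1.29 ± 0.19), Acoxl (-1.28 ± 0.18), Ubash3b (-0.84 ± 0.12) and Pecam1 (-0.76 ± 0.10) also fell, as did Pdcd1 (-0.87 ± 0.15), Tigit (-0.73 ± 0.14) and Tnfsf8 (-0.87 ± 0.15). The Ikzf2 sum fell by 1.04 ± 0.24, a call lost without S3, and those of Inpp4b (-0.48 ± 0.12; lost without N1, N3 or S3) and Prkca (-0.58; lost without N2 or N3) fell likewise. The Trat1 sum rose from 5.51, 4.91 and 4.76 to 6.34, 6.41 and 5.98 (1.16 ± 0.19, adjusted p = 0.0032 in edgeR), and those of Nebl (0.61 ± 0.10), Znrf1 (0.56 ± 0.09) and Tiam1 (0.52 ± 0.09) rose as well. The Thada sum rose by 0.32 ± 0.09, a call kept only without S2 among the 6 omissions.

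Whether the interior of a gene moved with its boundary was tested per gene, as the summed distal intragenic regions minus the summed boundary regions of the same gene (limma, genes with at least 3 distal intragenic regions and 1 boundary region). Of 3146 genes, 408 had an interior lower and 150 an interior higher relative to the boundary with SMARTA cells (17.7% called), and the median difference was -0.10 log2. Under accessibility-trended offsets the balance was less uneven, with 295 interiors lower and 201 higher. The lower count was 212, 199, 176 and 241 without N1, N2, N3 and S3, and the higher count 69, 63, 48 and 60. In 280 of the 408 genes the interior sum itself was called lower, and in 337 the boundary was not called, in 65 it was higher and in 6 lower. In 59 of the 150 genes the interior sum was higher, and in 52 the boundary was lower.

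Acss1 had the smallest p among the genes with a lower interior. Its 4 distal intragenic regions summed to 5.22, 5.63 and 5.63 log2 CPM in N1 to N3 and 2.56, 2.89 and 2.60 in S1 to S3, while its boundary regions were at 5.85, 6.06 and 6.04 and at 6.21, 6.42 and 6.28. The interior thus fell while the boundary rose by 0.32 (adjusted p = 0.027 in edgeR), with a difference of -3.13 ± 0.13 (adjusted p = 1.1e-05 in limma). Smg1 (the kinase of nonsense-mediated decay) had interior sums of 4.33, 4.47 and 4.18 against 2.43, 1.71 and 1.88, and boundary sums of 7.85, 7.88 and 7.85 against 8.07, 8.02 and 7.97 (-2.48 ± 0.18). E130308A19Rik (-2.22 ± 0.15), Hibadh (an enzyme of valine breakdown; -2.06), Slc29a3 (a nucleoside transporter; -1.92) and Cwc27 (-1.57) followed. Cwc27 had 4 of 9 regions closed, 2 without N1, N3, S1 or S3. Tox (-0.82 ± 0.14, adjusted p = 0.0087 in limma) and Acoxl (-1.21 ± 0.21, adjusted p = 0.0078 in limma) were also called. Ubash3b was not (0.21, adjusted p = 0.52 in limma). Its only boundary region, of low accessibility, fell by 1.10, from 1.69, 1.83 and 2.02 log2 CPM to 0.55, 0.92 and 0.89.

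Among the 6 genes with the smallest p in the other direction, the boundary sum fell by 1.69 to 3.19 on the log2 scale and no interior sum was called. In each of the 6 this sum was a single region. In Slc22a15, Slc30a3 and Slc35d1 it had a negative log2 CPM in every S library. In Slc22a15 (an organic cation transporter) the boundary sum was 3.00, 2.69 and 2.50 log2 CPM in N1 to N3 and -0.51, -0.10 and -0.32 in S1 to S3, whereas its 6 distal intragenic regions summed to 5.72, 5.57 and 5.51 and to 5.48, 5.53 and 5.34 (difference 2.89 ± 0.15, adjusted p = 4.1e-05 in limma). In Csk (a kinase that inhibits Src-family kinases) the boundary went from 2.79, 3.08 and 3.27 to 0.74, 0.97 and 1.10, while the 10 distal intragenic regions, none of them called, summed to 8.04, 8.07 and 8.15 and to 8.06, 8.12 and 8.01 (2.08 ± 0.16, adjusted p = 0.00034 in limma). Piwil2 (2.48), Mamdc2 (1.88), Slc30a3 (a zinc transporter; 1.64) and Slc35d1 (a nucleotide-sugar transporter; 1.43) were the others with the smallest p. None of these 12 calls was lost in any alternative in which the gene was tested. St8sia1 was called higher inside (0.72 ± 0.16, adjusted p = 0.019 in limma), a call lost without N2, N3 or S3.

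**Figure D5:**
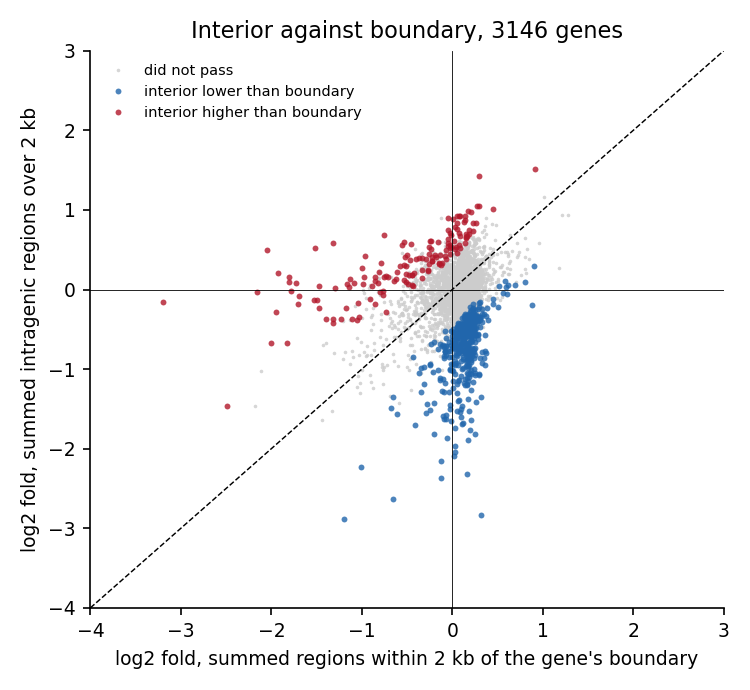
Log2 fold, with minus without SMARTA cells, of the summed distal intragenic regions of a gene (vertical) against that of its summed boundary regions (horizontal), for 3146 genes. Colours mark the 408 genes with a lower and the 150 with a higher interior relative to the boundary; other genes are grey.

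Regions of the same gene also differed from each other in their response. A test for unequal change among the distal intragenic regions of a gene (edgeR's diffSpliceDGE, which treats the regions of a gene as independent) called 1886 of 3626 genes with at least 3 regions, or 52%. Among them were 331 of the 336 genes that held both closed and opened regions. Those 336 were picked by calls from the same counts, so their share adds no support. The stricter Simes combination called 1419. Inpp4b had the smallest p, although its interior and its only boundary region moved alike (0.04, adjusted p = 0.88 in limma). In Celf2 (an RNA-binding splicing regulator), 10 of 48 regions were closed and 1 opened (6, 5, 6 and 6 closed without N1, N2, N3 and S3; none opened without N1 or N2 and 3 without S2), from a region at 4.03, 3.97 and 3.98 against 1.65, 0.73 and 1.46 to a highest fold of 0.98, which was not called. Arhgap26 held 10 closed and 6 opened of 48. Its lowest region, which also lies in Fgf1, went from 2.62, 2.51 and 2.57 to -0.07, 0.30 and -0.07, and its highest from 0.57, 1.21 and 0.32 to 2.33, 1.79 and 2.25. Without N2, N3 and S3, 4, 1 and 1 regions of Arhgap26 were closed, and 2, 2, 3, 3 and 2 were opened without N1, N2, N3, S1 and S3. Asap1 (an Arf GTPase-activating protein) had 8 of 37 closed and Rad51b (a recombination protein) 10 of 42, the latter 6 without N3 and 5 without S3. In neither was a region opened, except that without S2 2 of Asap1 and 1 of Rad51b were.

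The peak lists, called separately in each library by the authors, gave a further view. A peak overlapped 76.4, 89.6 and 88.6% of distal intragenic regions in N1 to N3 and 83.5, 65.0 and 81.5% in S1 to S3, so the groups overlapped. The means, 84.9 and 76.7%, differed by -8.22 percentage points (exact permutation p = 0.3), by -2.38 without S2 and by -12.5 without N1. All 6 libraries had a peak at 17037 distal intragenic regions (53.2%), against 76.9% of boundary regions. A peak in all 3 N libraries and no S library was found at 1359 distal intragenic regions (4.24%), against 3.59% of all regions, and the reverse at 297 (0.93%), against 0.80%. Both shares lay near those of all regions, and S2 had the lowest share of regions with a peak.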

How the data were processed

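The authors deposited raw read counts for 74686 regions in 6 libraries and, per the file headers and formats, a narrowPeak list per library. The deposited peak lists hold a fold enrichment, −log10 p and q values and a score for each peak. Per the submitters' processing notes, the tools included MACS2 2.1.1, DiffBind 3.4.11, BWA 0.7.17, Picard 2.18.9 and SAMtools 1.8, with GRCm38 as the build, and how reads were shifted or filtered is not given in the sources used here. Columns were matched to samples by the library names in the per-library files, and 0 columns stayed unmatched.

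Regions were placed by RefSeq gene bodies (GRCm38.p6). Counts were fitted over all regions without a replicate term by edgeR 4.0.16 (quasi-likelihood, TMM scaling, Benjamini-Hochberg threshold 0.05, R 4.3.3). filterByExpr removed 0 regions. Log2 CPM used a prior count of 2. SE is the size of the log2 fold over the square root of F. The interior against the boundary was tested with limma 3.58.1. Single values of 3 against 3 libraries had exact permutation tests. The fits were tested on simulated data with known changes. DESeq2 1.42.0, other scalings, filters, distances, a replicate block and the omission of each library were alternatives.

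The regions and gene lists were chosen with earlier results of these data known. Regions and genes were named by size rules. The 8 largest changes each way were taken among called regions above the median accessibility whose groups did not overlap. The other rules took the 8 genes with most calls, up to 4 genes per list with any list gene of at least 8 regions and no call. They also took the 6 smallest p per gene-level test and the 5 most accessible regions. The internal starts with sequences, and some further list genes and gene sums, were picked after their values were seen.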

Additional observations from a re-analysis of the deposited data

How the results depend on the processing

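Leaving out 1 library at a time gave 2153 to 4211 closed and 584 to 2085 opened distal intragenic regions, the highest counts being those without S2. It gave 176 to 385 genes with a lower and 48 to 153 with a higher interior relative to the boundary, and 510 to 968 lower and 162 to 560 higher gene sums. With genes of at least 1 distal intragenic region 635 interiors were lower than the boundary, and with at least 5 regions 262 were lower and 86 higher. Sums over genes with at least 3 regions gave 485 lower and 241 higher. DESeq2's Wald test called 4045 closed and 1817 opened regions, and accessibility-trended loess offsets 3705 and 1907. With those offsets Slc39a10 stood at -0.012 (adjusted p = 0.87 in edgeR) against 0.21. Of 1326 values of named regions under the alternatives, 1260 kept direction and side of the threshold, 55 lost their call and 10 gained one. Most of these regions were named for large folds or small p in the main fit, so this share does not carry over to all regions. Deviations from the group mean in libraries with the same replicate number had correlations of -0.044, -0.101 and 0.066. With 3 libraries per group these values cannot show whether the numbers pair the libraries. A replicate block gave 3554 closed and 1307 opened regions, 313 lower and 121 higher interiors, 863 lower and 354 higher gene sums, and 1743 genes with regions that differed from each other. The lowest median count per region was 51, in S2.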
